A study of Mus musculus with 4 samples.

Results

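Transcripts of 10 cadherin and catenin genes were measured in B16-F10 cells, a mouse melanoma line, after 24 h with or without recombinant Cdh1. The genes were the cadherins Cdh1, Cdh2, Cdh3, Cdh11 and Cdh13 and the catenins Ctnnb1, Ctnna1, Ctnna2, Ctnnd1 and Jup. They were represented by every non-control probe whose RefSeq accession belonged to one of them, which gave 17 of the 56605 probes of the array. The accessions named 23462 genes in all. The cells were grown in medium with 10% fetal bovine serum. The control cultures received no added protein and the treated cultures received 100 ng/mL of the recombinant protein, which the labels name by its symbol alone. There were 2 independent sets, each of 1 control and 1 treated culture, and 1 one-colour array was hybridised for each of the 4 cultures. The sets are called set 1 and set 2, as in the sample titles. All 4 cultures were of 1 cell line, and no other line was compared.

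Classical cadherins are transmembrane proteins that bind cadherins of the neighbouring cell in a calcium-dependent way. Their cytoplasmic tails bind p120-catenin, which keeps them at the cell surface, and beta-catenin or plakoglobin, which link them through alpha-catenin to actin filaments. Beta-catenin also acts with TCF/LEF factors in the nucleus as the transcriptional arm of Wnt signalling. Normal melanocytes adhere to keratinocytes largely through E-cadherin, and melanoma cells commonly carry N-cadherin in its place.

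A signal is given on the log2 scale relative to the 75th percentile of its array, which is therefore 0. They cannot be compared between probes, since each probe hybridises with its own efficiency. The scanner software called 59.3% to 61.3% of an array's spots, controls aside, well above background. The 4 arrays shared 1 slide and 1 scan. Of the 8 melanocyte markers examined, all were well above background on all 4 arrays. Their summed signal was 1601 and 1567 times the 75th percentile in set 1 and 1349 and 1344 times in set 2. Among the 6 epithelial markers Epcam, Krt8 and Krt18 were not well above background on any array, and neither were the leukocyte marker Ptprc, the endothelial markers Kdr and Tek or the fibroblast markers Thy1 and Dcn. Others of these lists were above background on all 4 arrays, namely Krt5 and Krt14 (2 of 6 epithelial), Col1a1, Col1a2 and Pdgfra (3 of 5 fibroblast), Cd3e, Itgam and Cd68 (3 of 5 leukocyte) and Pecam1 (1 of 3 endothelial). The summed signal of a list lay between 0.0971 and 0.113 (epithelial), 2.65 and 3.52 (fibroblast), 10.26 and 11.96 (leukocyte) and 0.0713 and 0.0988 (endothelial) times the 75th percentile. With 2 arrays a group, an exact two-sided permutation test of a single probe cannot give a p below 0.333, so tests were taken from limma fits over all probes. The labels do not say how the sets were separated, and the p-values measure only the spread between these arrays. In RNA from whole cultures, fewer cells with a transcript and less of it per cell cannot be told apart. The last 24 of the 384 rows of spots stood apart. There 3.75% of tested probes differed at least 2-fold between treated and control cultures, against 0.289% in the other rows, and 6.59% against 3.7% between the sets. No member probe lay in those rows.

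On all 4 arrays 12 of the 17 probes were well above background, and they covered 8 of the 10 genes. The remaining 5 were the Cdh3 probe, both Jup probes and 2 of the 3 Ctnna2 probes. None of these was tested, and of the 5 only 1 Ctnna2 probe was well above background on an array. Thus transcripts for E-cadherin, N-cadherin, cadherin-11, cadherin-13, beta-catenin, alpha-E-catenin and p120-catenin were detected on every probe and array. For E-cadherin this rests on 1 probe. It read 24.2 to 29.9, against 9.38 to 12.7 for the dimmest signals called well above background. Transcripts for P-cadherin and plakoglobin were not well above background on any probe or array.

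None of the 12 probes was called different between treated and control cultures. The mean differences lay between -0.12 and 0.02 on the log2 scale (n = 2 per group), and each had a limma adjusted p of 1. Over the whole array 0 of 32571 probes were called, or 0%, and 561 (1.72%) had an unadjusted p under 0.05, none of them among the 12. This fit had no block, so differences between the sets entered its error. With the set as a block 0 probes were called and 2335 had an unadjusted p under 0.05 (limma). The median difference of the 12 probes was -0.043, against -0.0041 over all probes tested. The differences were negative for 10 of the 12 probes, against 51.9% of all probes tested. They were negative in both sets for 7, against 26.9% of the 31155 probes above background on all arrays. Probes of a gene are not independent of each other. Taking each gene by its brightest probe, 6 of 8 members were negative, against 8469 of 14455 genes. Both sets were negative for 5 of the 8, against 4572 of the 14455. The SEs of the 12 differences were 0.10 to 0.35 in the fit without a block and 0.06 to 0.08 with the set as a block. For treated minus control, SEs below come from the fit without a block unless stated. In that fit the widest 95% interval ran from -1.06 to 0.88. With the set as a block, the 12 intervals lay between -0.32 and 0.28, or within 1.25-fold in either direction under that fit. Each is a 95% interval for its own probe, so they do not bound the 12 together.

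**Figure D1:**
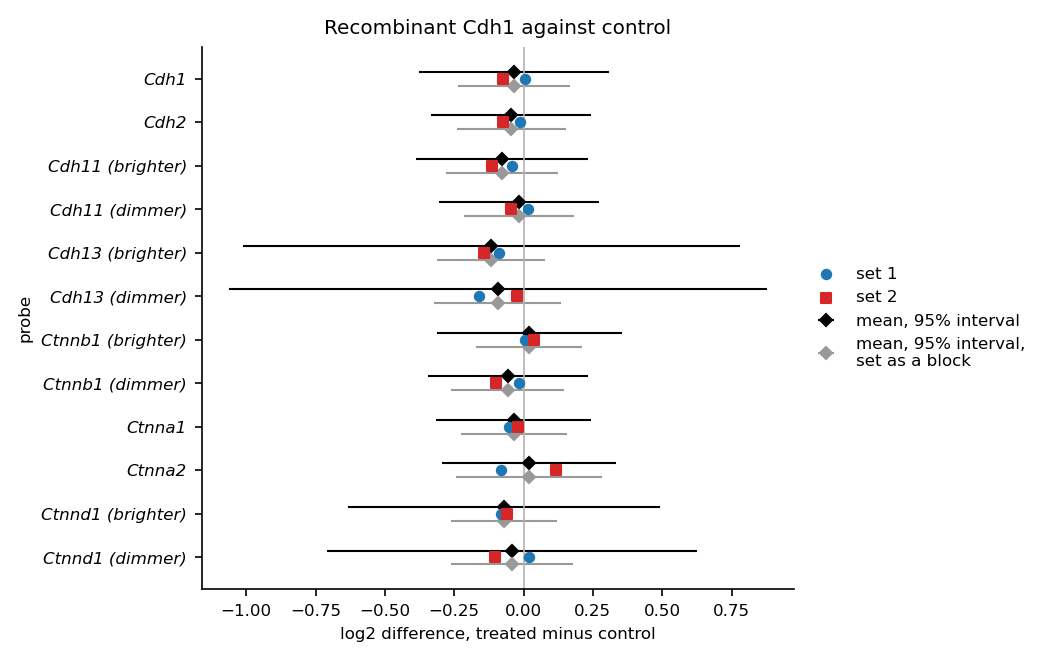
Log2 difference of treated minus control (x axis) for each of the 12 tested member probes (y axis; "brighter" and "dimmer" tell apart the probes of a gene). Circles are set 1, squares set 2, and diamonds the mean with its 95% interval from limma, in black without and in grey with the set as a block. Every interval includes 0, and the black intervals of Cdh13 are the widest.

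Among the cadherins, Cdh1 encodes E-cadherin, the adhesion molecule of epithelia. Its probe (NM_009864) had processed intensities of 24.2 in control and 24.6 in treated cells of set 1, and 29.9 and 28.1 in set 2. These stood above the negative control spots, whose median intensity was 2.14 to 2.88 on the arrays, and above the dimmest probes called well above background, at 9.38 to 12.7. The 2 groups overlapped. The mean signal was -4.47 ± 0.13 for control and -4.50 ± 0.07 for treated cultures (SD, n = 2), and the difference was -0.03 (SE 0.12). Cdh2, for N-cadherin (NM_007664), gave 4159 and 4169 in control and treated cells of set 1 and 4508 and 4230 in set 2. Its signal was 2.86 ± 0.01 in control and 2.82 ± 0.05 in treated cultures (SD, n = 2), and the difference between them was -0.04 (SE 0.10). Cdh3, for P-cadherin, has no protein-coding gene between it and Cdh1 in the RefSeq gene table, where 3 other genes lie between them. Its probe (NM_001037809) read 1.95 to 2.68 on the 4 arrays, at the level of the negative control spots.

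Cdh11 encodes cadherin-11, a type II cadherin of mesenchymal cells, and was read by a pair of probes (NM_009866). The brighter gave 1300 and 1281 in control and treated cells of set 1 and 1375 and 1255 in set 2, and the dimmer 149 and 153 in set 1 and 172 and 164 in set 2. Their treated minus control differences were -0.08 (SE 0.11) and -0.02 (SE 0.10); the dimmer probe had opposite signs in the 2 sets. Cdh13 encodes T-cadherin, which is held in the membrane by a lipid anchor and lacks the cytoplasmic tail that binds catenins. Its brighter probe (NM_019707) read 335 in control and 319 in treated cells of set 1, and 569 and 509 in set 2. The dimmer probe read 173 and 157 in set 1 and 286 and 278 in set 2. In both sets and on both probes the treated culture was the lower, by 0.02 to 0.16 on the log2 scale, and both arrays of set 2 stood far above both of set 1. The mean differences between treated and control were -0.12 (SE 0.32) and -0.09 (SE 0.35), with limma adjusted p-values of 1, or of 0.825 and 0.897 when the fit had a block for the set. In the fit with a block their SEs were 0.06 and 0.07.

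Among the catenins, Ctnnb1 encodes beta-catenin. Its brighter probe (NM_007614) read 10294 in control and 10459 in treated cells of set 1, and 10195 and 10338 in set 2, a difference of 0.02 with an SE of 0.12. Its dimmer probe read 332 and 333 in set 1 and 366 and 337 in set 2, a difference of -0.06 with an SE of 0.10. The probes thus differed in sign by an amount within either SE of the fit without a block. Ctnna1 encodes alpha-E-catenin, the alpha-catenin of most tissues. Its probe (NM_009818) read 15919 and 15556 in control and treated cells of set 1 and 17207 and 16761 in set 2. After scaling, the signals of Ctnna1 were 4.81 and 4.79 in control and 4.76 and 4.77 in treated cultures. The groups therefore did not overlap, as was also the case for the dimmer Ctnnb1 probe and for 18.1% of all tested probes, but the difference of -0.04 was smaller than its SE of 0.10 and took the opposite sign, at 0.0064, after normexp and quantile normalization.

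Ctnna2, which encodes the neuronal alpha-N-catenin, gave readings that differed between its 3 probes. A probe of NM_001109764 read 60.0 and 57.4 in control and treated cells of set 1 and 60.2 and 64.5 in set 2, well above background on all 4 arrays. The other probe of the same accession read 1.90 to 2.58. A probe of NM_009819 read 3.48, 6.40 and 3.56 in control set 1, treated set 1 and control set 2, and 22.2 in treated set 2, where alone it was well above background. The probes of this gene therefore disagree on whether it is detected, and no level of it is drawn from them. The difference between treated and control on the detected probe was 0.02 with an SE of 0.11, being -0.08 in set 1 and 0.12 in set 2. Ctnnd1 encodes p120-catenin. Its brighter probe (NM_007615) read 6311 in control and 6042 in treated cells of set 1, and 5396 and 5114 in set 2, and the dimmer read 196 and 201 in set 1 and 167 and 153 in set 2. The treated minus control differences were -0.07 (SE 0.20) and -0.04 (SE 0.24), and with the set as a block the SEs were 0.06 and 0.07. On both probes of Ctnnd1 the arrays of set 2 were the lower ones. Jup encodes plakoglobin, the close relative of beta-catenin that also serves desmosomes. Its probes (NM_010593) read between 1.99 and 7.46 on the 4 arrays and were not well above background on any.

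The RefSeq promoter table (GRCm38.p6) held 4 of the 10 genes, Ctnnb1, Ctnna2, Ctnnd1 and Jup. Cdh1, Cdh2, Cdh3, Cdh11, Cdh13 and Ctnna1 were not in it. The 250 bases before the outermost listed start are shown for 3 catenins that differed in these data: Ctnnb1, which was detected and was not called in either comparison, Ctnnd1, which differed between the sets, and Jup, which was not detected. They are written 5′ to 3′ on the strand of the gene, with each CG dinucleotide in capitals.
Ctnnb1, chr9:120933150-120933399, plus strand: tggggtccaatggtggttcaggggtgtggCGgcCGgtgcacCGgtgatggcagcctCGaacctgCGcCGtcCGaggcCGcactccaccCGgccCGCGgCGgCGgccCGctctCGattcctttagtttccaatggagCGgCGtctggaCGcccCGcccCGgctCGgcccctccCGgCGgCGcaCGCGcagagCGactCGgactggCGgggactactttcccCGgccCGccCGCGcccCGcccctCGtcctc
Ctnnd1, chr2:84658978-84659227, minus strand: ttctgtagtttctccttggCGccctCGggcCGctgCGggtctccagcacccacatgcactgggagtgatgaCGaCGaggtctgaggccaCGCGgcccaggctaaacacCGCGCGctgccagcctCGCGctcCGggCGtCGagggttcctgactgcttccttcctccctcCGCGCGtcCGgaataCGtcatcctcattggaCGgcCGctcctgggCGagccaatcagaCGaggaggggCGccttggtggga
Jup, chr11:100397791-100398040, minus strand: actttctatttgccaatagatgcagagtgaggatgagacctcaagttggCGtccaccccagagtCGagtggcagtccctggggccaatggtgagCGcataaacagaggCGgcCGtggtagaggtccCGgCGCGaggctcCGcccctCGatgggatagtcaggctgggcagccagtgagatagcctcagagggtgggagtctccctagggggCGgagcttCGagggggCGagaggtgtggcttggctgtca
CG occurred 35 times before Ctnnb1, 26 times before Ctnnd1 and 13 times before Jup. As many were present in 2.97%, 9.59% and 31.5% of the 32851 windows of the table, whose median count was 6. The Ctnna2 window held 30. The E-box form CAGGTG, or CACCTG on the other strand, to which Snail and Zeb proteins bind, was present in 17.2% of all windows. It occurred 1 time before Ctnna2 and was absent from the windows of the other three. The TCF/LEF core CTTTGA, or TCAAAG on the other strand, was present in 13.8% of all windows and in none of the 4. Such matches describe the letters of these windows only.

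The 2 sets, which the series' design text names as independent, were then compared. Differences between the sets were known from earlier results of these data when this comparison was chosen, so its p-values are no independent support. Cdh13, for T-cadherin, was higher and Ctnnd1, for p120-catenin, was lower in set 2, each on both of its probes and in control and treated cultures alike. The other 6 genes with a tested probe were not called. Of the 12 probes 4 were called at an adjusted p under 0.05 (limma, 2 arrays per set), which is 33.3%, against 15.5% of the 32958 probes tested over the whole array. The 2 higher ones stood beside 6.83% higher and the 2 lower ones beside 8.64% lower over the array. The probes of a gene are not independent of each other, so these are 2 genes and not 4 independent results. By gene, each taken by its brightest probe, 2 of 8 members were called, or 25%, against 19% of 14649 genes over the array, a share near the background. The p-values describe these 2 sets of cultures, and everything that a set shared in culture, extraction or labelling cannot be told apart. The summed signals of 4 of the 5 marker lists (melanocyte, epithelial, fibroblast and leukocyte) were also lower on both arrays of set 2 than on both of set 1, while those of the endothelial list overlapped. A sum is weighted to the brightest probes of its list, and not every marker was lower in set 2. Set 2 minus set 1 was 0.20 for Sox10 and 0.15 for Krt5. For the leukocyte marker Itgam it was -0.13 on the brighter probe and 0.39 on the other. The part of these sums in the differences between the sets was not tested. The 2 sets did not overlap on 9 of the 12 probes, where 67.6% of all tested probes did not overlap either and 15.5% were called.

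**Figure D2:**
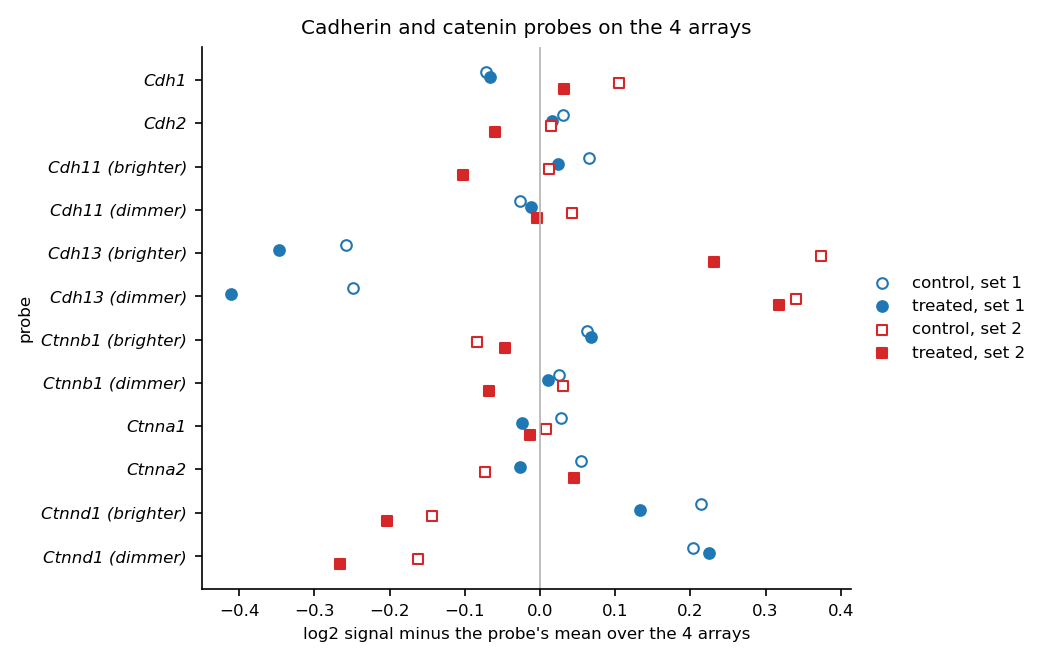
Log2 signal on each array minus the probe's own mean over the 4 arrays (x axis) for the 12 tested member probes (y axis). Circles are set 1 and squares set 2, open for control and filled for treated. Both Cdh13 probes have the squares above and the circles below 0, both Ctnnd1 probes the reverse, and the remaining probes lie closer to 0.

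The Cdh13 signal was -0.81 ± 0.06 in set 1 and -0.20 ± 0.10 in set 2 on the brighter probe, and -1.80 ± 0.11 and -1.14 ± 0.02 on the dimmer (SD, n = 2). The 2 sets did not overlap on either. The rises of Cdh13 were 0.61 (SE 0.08, limma adjusted p 0.0259) and 0.66 (SE 0.08, adjusted p 0.0219), or 1.52-fold and 1.58-fold. Within the control arrays alone the differences were 0.63 and 0.59, and within the treated arrays 0.58 and 0.73. A difference at least as large as those of the 2 probes was found in 10.3% and 8.73% of all probes tested. With the group as a block the adjusted p-values were 0.0465 and 0.0486.

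The Ctnnd1 signal was 3.43 ± 0.06 in set 1 and 3.08 ± 0.04 in set 2 on the brighter probe, and -1.53 ± 0.01 and -1.96 ± 0.07 on the dimmer (SD, n = 2), again without overlap. It fell by 0.35 (SE 0.06, limma adjusted p 0.0434) and by 0.43 (SE 0.06, adjusted p 0.0319) on the log2 scale, to 0.786 and 0.743 of the level of set 1. The differences were -0.36 and -0.37 within the control arrays and -0.34 and -0.49 within the treated arrays. As large a difference was found in 24.5% and 18.1% of all probes tested. With the group as a block both Ctnnd1 probes lost their call (adjusted p 0.0733 and 0.0691), and with median centring they did so as well (0.0813 and 0.0538). Leaving out any 1 array, whether control or treated and of either set, ended the calls of both genes, with adjusted p-values of 0.0756 to 0.108 for Cdh13 and 0.0974 to 0.169 for Ctnnd1. In those fits the number of called probes on the whole array went from 5098 to between 0 and 409. The differences themselves stayed between 0.53 and 0.74 for Cdh13 and between -0.48 and -0.31 for Ctnnd1.

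**Figure D3:**
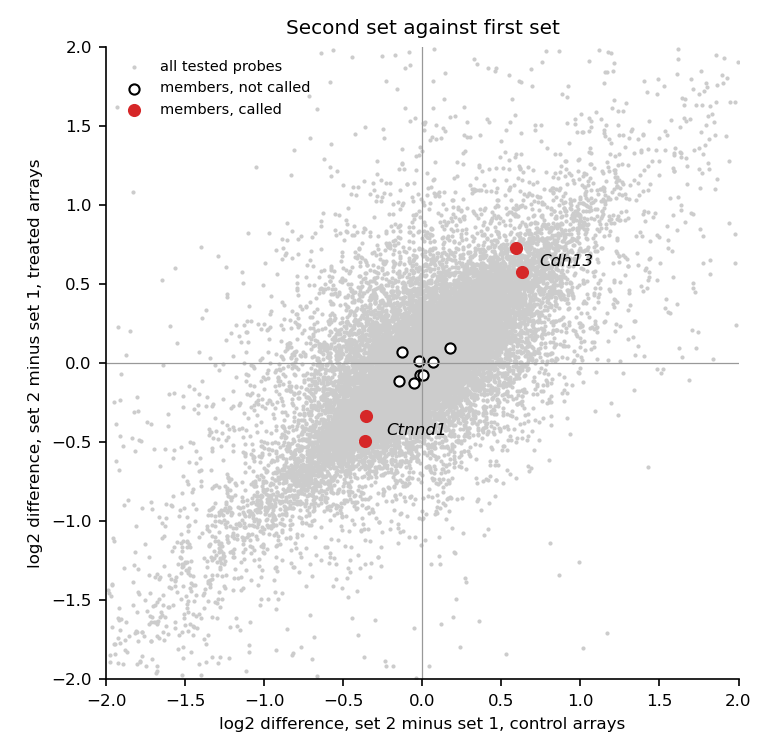
Log2 difference of set 2 minus set 1 in the control arrays (x axis) and in the treated arrays (y axis). Grey points are probes tested over the whole array (435.0 of 32958 lie beyond the axes), open circles the 8 member probes not called and filled circles the 4 called; the Cdh13 probes lie at 0.58 to 0.73 and the Ctnnd1 probes at -0.49 to -0.34 on both axes.

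Separate probes of a gene show how far a call rests on a single probe, though they may read different transcripts of it. Over the whole array 4175 genes had exactly 2 tested probes, and in 382 of them (9.15%) both probes were called in the same direction between the sets. They were 37.6% of the 1017 such genes with at least 1 called probe. Among the members 4 genes had 2 tested probes, and Cdh13 and Ctnnd1 were those with both called.

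The remaining members differed between the sets by less. Cdh1 was higher in set 2 by 0.14 (SE 0.06, limma adjusted p 0.182), with a 95% interval of -0.03 to 0.30. The brighter Ctnnb1 probe was lower by 0.13 (SE 0.05, adjusted p 0.174), with an interval of -0.28 to 0.02, and was called only with a trended and robust prior (adjusted p 0.0287). The dimmer Ctnnb1 probe gave -0.04 (SE 0.06). For Cdh2 the difference was -0.05 (SE 0.06), with an interval of -0.21 to 0.12. It was -0.09 (SE 0.07) and 0.04 (SE 0.05) for the probes of Cdh11, and -0.03 (SE 0.07) for the detected probe of Ctnna2. The smallest was that of Ctnna1, at -0.0045 (SE 0.06) with an interval of -0.16 to 0.15. For Ctnna1 and Cdh2 the intervals thus lay between -0.21 and 0.15. Whether these genes differed from Cdh13 or Ctnnd1 in this was not tested.

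Other genes of the adherens junction and of beta-catenin turnover were examined in 5 lists of 76 genes, each gene by its brightest probe. Under recombinant Cdh1, 0 of the 55 tested genes were called, against 0% of 14455 genes (limma). An unadjusted p under 0.05 was found for 2 of the 55, against 160 of the 14455. The median difference was -0.0125 over the listed genes and -0.0143 over all genes. Among genes above background on each array, the largest positive mean differences with the same sign in both sets were those of the cadherin Cdh22, at 0.33 (SE 0.19), the beta-catenin ubiquitin ligase subunit Btrc, at 0.15 (SE 0.29), and Numb, an endocytic adaptor, at 0.11 (SE 0.20). The largest negative ones were those of the cadherin Cdh16, at -0.13 (SE 0.15), the adhesion receptor Nectin4, at -0.12 (SE 0.11), and the Src-family kinase Yes1, at -0.10 (SE 0.15). Each of these 6 had a limma adjusted p of 1. The Cdh22 probe read only 14.2 to 23.2, against 9.38 to 12.7 for the dimmest signals called well above background. Its difference was 0.14 in set 1 and 0.52 in set 2. The genes with an unadjusted p under 0.05 were Cdh15 and Twist1, which the rule for naming genes leaves out and which are named here because of their values. Cdh15, for M-cadherin of muscle, gave 0.73 (SE 0.25, limma adjusted p 1), being 1.03 in set 1 and 0.42 in set 2. Its intensities were 11.06 to 25.27, and its probe was above background on 3 of the 4 arrays. Cdh15 was thus tested through only 1 of the groups compared. The reading of 11.06, in control set 1, lay near the dimmest signal called well above background there, 10.42. Twist1 is a repressor of the E-cadherin gene. Its probe stood in row 381, among the last 24, and exceeded background in control cultures only. Control was at least 1.71-fold over the bound for treated cultures, taking the dimmest signal well above background for the latter (limma adjusted p 1). It was tested only through the group where it was high. The part of its place on the array in this value was not tested.

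Between the sets, 13 of 55 listed genes were called, 4 higher and 9 lower in set 2 (limma). Of the 53 that were above background on all 4 arrays 12 were called, 8 of them lower, which leaves out Cdh10. The 13 of 55, Cdh10 included, are 23.6%, against 19% of 14649 genes over the array (7.54% higher and 11.5% lower). The median difference was 0.02 over the listed genes against -0.03 over all genes. The beta-catenin turnover list held 6 of the 13, of 14 tested. Axin1 and Axin2 encode the scaffolds of the complex that marks beta-catenin for destruction, and Axin2 is also a well-known target of Wnt signalling. Their signals were 1.93, 1.98, 2.62 and 2.58 for Axin1 and -1.75, -1.88, -3.09 and -3.11 for Axin2 in control set 1, treated set 1, control set 2 and treated set 2. Axin1 was thus higher in set 2 by 0.65 (SE 0.06, limma adjusted p 0.0137), with another probe at 0.75, and Axin2 was lower by 1.28 (SE 0.07, adjusted p 0.0078). Tcf7l1, a TCF factor that mostly represses, was higher by 0.77 (SE 0.05, adjusted p 0.0103). Btrc was lower by 0.54 (SE 0.10, adjusted p 0.044), but its other probe gave 0.19. Called but outside the rule for naming genes were Gsk3b, the kinase of the destruction complex, at -0.36, and Tcf7l2, at 0.39, whose other probes gave 0.02 to 0.16.

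**Figure D4:**
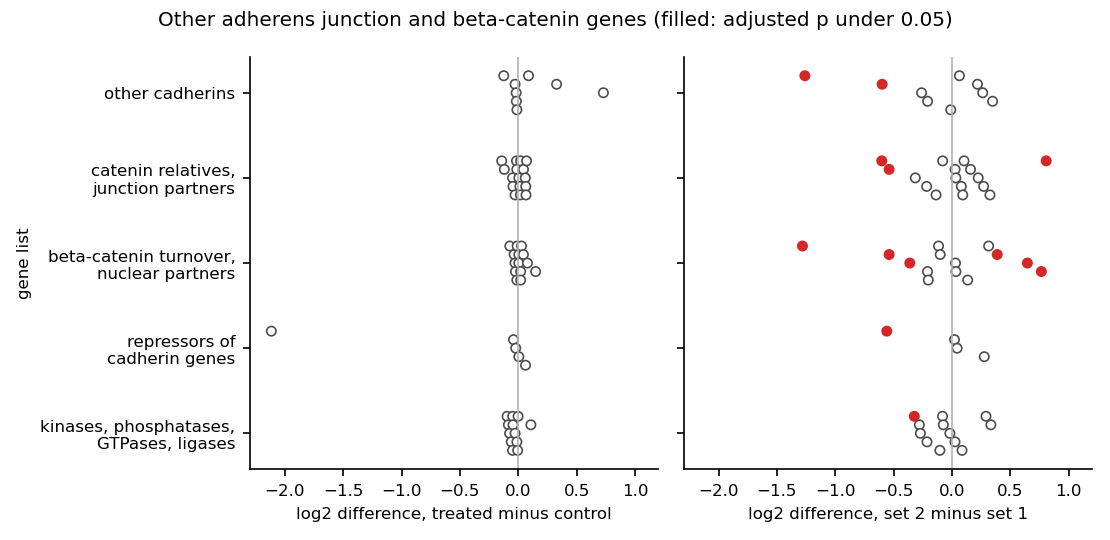
Log2 differences of the listed genes (x axes), treated minus control on the left and set 2 minus set 1 on the right, by gene list (y axis), each gene by its brightest probe. Filled points had a limma adjusted p under 0.05; the left panel holds none (its outlying points are Twist1, at a fitted value against signals not above background, and Cdh15), and the right panel holds 13, from -1.28 for Axin2 to 0.81 for Arvcf.

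Among catenin relatives and junction partners 3 of 16 tested genes were called between the sets. Arvcf, which belongs to the p120-catenin family, was higher in set 2 by 0.81 (SE 0.12, limma adjusted p 0.0308), with another probe, in row 372, at 0.60, while Ctnnd1 was the lower of that family. Vcl, for vinculin, and Lima1, for the actin-binding protein EPLIN, both of which link alpha-catenin to actin, were lower by 0.54 and 0.60 (SE 0.06 each, adjusted p 0.0177 and 0.0167). Among other cadherins 2 of 9 were called. Cdh19 was lower by 0.60 (SE 0.07, adjusted p 0.0237), from a probe in row 374, among the last 24 rows. Cdh10 was well above background on both arrays of set 1 and on neither of set 2, at least 1.35-fold above the bound there (limma adjusted p 0.0194). It was tested only through set 1, where it was high, so its place among the called genes is no independent support. Among the repressors of cadherin genes Snai2, which encodes Slug, was lower by 0.56 (SE 0.07, adjusted p 0.0233), and 1 of 4 tested was called. Of the 12 kinases, phosphatases, GTPases and ligases 1 was called, the kinase gene Fyn at -0.32, which the naming rule did not hold. With the group as a block 5 of the 13 were called, namely Axin1, Axin2, Tcf7l1, Vcl and Cdh10, or 4 without Cdh10, and leaving out any 1 array, control or treated, gave 0.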

How the data were processed

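Total RNA of 4 B16-F10 cultures was labelled with Cy3 and hybridised to 1-colour Agilent arrays, 1 array per culture. The authors read them with Agilent Feature Extraction 12.0.3.1, per the file headers, which name mm9 as the design's build. The deposited processed intensity is background-subtracted and detrended within each array, and was not normalized between arrays. The authors' deposited table held the same intensity times 1 factor per array, from 0.873 to 0.93.

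Here log2 intensities were scaled to each array's 75th percentile over non-control spots, outlier-marked spots were left out, and spots of a probe were averaged. A probe was fitted where either of the groups compared had it above background on each array, using limma 3.58.1 in R 4.3.3, with Benjamini-Hochberg adjustment over all probes and a threshold of 0.05. Treated was compared with control, and set 2 with set 1, without a block. The titles number the sets, and the design text names them as sets of 1 control and 1 treated culture, so the numbers pair the arrays. Deviations of same-numbered arrays from their group means correlated at 0.745 across 31155 probes. Probes were named through RefSeq accessions (33767 of 56605 probes). The rule for naming list genes took genes called between groups or sets, at most 10 per comparison by size, and the 3 largest mean rises and falls under treatment, of the same sign in both sets and above background on each array. The planned background correction used the spot's median intensity, since no mean intensity is in the files. The members and lists were chosen with earlier results of these data known. The fits were tested on simulated data with known changes. Its arrays varied independently, so differences shared by a set were not part of that test. Python 3.11.15, pandas 2.3.3 and matplotlib 3.10.9 were used.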

Additional observations from a re-analysis of the deposited data

Results flagged for a closer look

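The treated minus control difference had opposite signs in the 2 sets for 4 of the 12 tested member probes. With 1 pair of cultures per set the difference between the sets was not tested. It was 0.01 in set 1 and -0.07 in set 2 for Cdh1, and 0.01 and -0.05 for the dimmer probe of Cdh11. For the detected probe of Ctnna2 it was -0.08 and 0.12, and for the dimmer probe of Ctnnd1 it was 0.02 and -0.10. The brighter probes of Cdh11 and Ctnnd1 had 1 sign in both sets.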

How the results depend on the processing

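The count of 0 called probes, member probes and listed genes between treated and control was the same under each alternative run, including 1 array left out (0 to 0) and the set as a replicate block (0 called, 2335 probes at an unadjusted p under 0.05). The replicate block changed no call among the members, whose adjusted p-values were then 0.825 to 0.984. Between the sets, 5098 called probes became 8978 with normexp and quantile normalization, 11196 with the trended and robust prior, 0 without the filter on dim probes (limma, lowest adjusted p 0.0743, 9530 at an unadjusted p under 0.05), 2165 with the group as a block, and 0 to 409 when single arrays were left out. The 4 member probes became 2 with median centring, 2 with the group as a block, 0 without the filter and 0 to 0 with 1 array left out. The 13 listed genes became 26, 27, 0, 5 and 0 to 0 with normexp, the prior, no filter, the group as a block and 1 array left out. Leaving out an array leaves 1 side with a lone array, assumed to vary like the others.

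The median of the listed genes under treatment, -0.0125, was -0.0565 with median centring, 0.0118 with the authors' table, 0.0039 without the filter and -0.0407 to 0.0149 with 1 array left out. Between the sets it was 0.0216, and 0.0404 with quantile normalization, 0.0688 with the authors' table and -0.0198 to 0.0244 with 1 array left out. Differences near 0 changed sign, and the cause was not tested. Under treatment these were the dimmer Cdh11 probe with the authors' table (0.0081), the brighter Ctnnb1 probe with median centring (-0.023), Ctnna1 with normexp (0.0064), and Ctnna2 with quantile normalization (-0.0274) and median centring (-0.0253). Between the sets these were, with the authors' table, Cdh2 (0.0013), the dimmer Ctnnb1 probe (0.0107), Ctnna1 (0.0427) and Ctnna2 (0.0196), with normexp the dimmer Cdh11 probe (-0.0221) and Ctnna1 (0.0576), and Ctnna1 with quantile normalization (0.0366) and median centring (0.0087). With 1 array left out the treatment difference ranged from -0.1224 to 0.0546 for Cdh1, -0.0507 to 0.0184 for the dimmer Cdh11 probe, -0.4322 to 0.1998 and -0.4571 to 0.2716 for Cdh13, -0.0519 to 0.094 for the brighter Ctnnb1 probe, -0.0449 to 0.0824 for Ctnna2, and -0.2496 to 0.1085 and -0.2871 to 0.2032 for Ctnnd1. The set difference ranged from -0.0857 to 0.0127 for the dimmer Ctnnb1 probe, -0.0302 to 0.0211 for Ctnna1 and -0.0868 to 0.0316 for Ctnna2. Signal over background limits Cdh3, Jup and Ctnna2.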
